A study of Mus musculus with 8 samples.

Results

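The comparison described here is that of mouse liver after 8 weeks of carbon tetrachloride (CCl4) with liver after 4 weeks, on the 4 TaqMan Array Rodent MicroRNA A Cards of those times. Its members are the 178 assays, of 381 listed, that gave a threshold cycle on all 4 of these cards, which are 4 of the 8 in the series. The other cards hold untreated liver and liver after 1 week of CCl4, with 2 cards for each of the 4 groups. All mice were C57B6 females, 4 weeks old when treatment began, so that the 8-week mice were also older than the 4-week mice. CCl4 was diluted in corn oil and injected into the peritoneum, and the untreated mice are labelled as controls with no treatment. The dose is 1 mg/kg in the sample labels and 1 ml/kg in the methods, which give 2 injections a week. The design text counts 3 mice at 4 weeks and 2 at 8 weeks, against 2 cards at each time. Whether a group's 2 replicates were separate mice is not said in the labels, so the p-values measure only the spread between these cards, which may be technical.

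CCl4 is turned into a reactive radical by cytochrome P450 in hepatocytes, which die and are replaced while leukocytes enter and stellate cells deposit collagen. Repeated dosing turns this repair into fibrosis. MicroRNAs are short RNAs that repress messenger RNAs through pairing of their seed, bases 2 to 8, and many are made mostly by 1 cell type. In whole liver their levels therefore follow both the mixture of cells and what each cell makes, and fewer cells of a type cannot be told apart from less RNA per cell. The comparison asks whether the microRNA profile had levelled off by 4 weeks of injury or was still moving, and in which direction.

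The measurement was the threshold cycle (Ct), the PCR cycle at which the signal of an assay becomes detectable, and 1 cycle less means about 2 times as much template. Each value below is the card's mean Ct for the 168 assays determined on all 8 cards, minus the Ct of the assay, which is a log2 scale. Values of different assays are not compared, because assays differ in efficiency. The 4-week cards had 235 and 193 determined assays and the 8-week cards 226 and 214, against 205 to 224 on the other cards. The mean Ct was 28.8 and 30.4 at 4 weeks, against 28.0 and 29.5 at 8 weeks, so 4-week replicate 2 was the faintest of the 8 cards. The liver label was checked against hepatocyte microRNAs. All 8 of the list were determined on all 4 cards, and miR-122, the main microRNA of hepatocytes, crossed at a mean Ct of 22.7. The pancreas list (miR-216a, miR-216b and miR-217), the mmu-miR-1 and miR-133b assays of muscle and miR-124 of neurons were undetermined on all 4 cards. Other assays of the muscle and neuronal lists did give a Ct, with miR-133a, miR-137 and miR-128a determined on all 4 cards and rno-miR-1 on both 8-week cards.

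The mature sequences of a choice of the microRNAs described below are shown here to set those higher and lower at 8 weeks, and those that share a seed, beside each other. They come from RefSeq (GRCm38.p6), in which 31 of 34 assays looked up had an entry and miR-685, miR-185 and miR-375 had none. The assay names carry no arm ending for most, and the arm shown is the one the older name stands for. Capitals mark the seed. The first set holds microRNAs that were higher at 8 weeks than at 4 weeks.
miR-802-5p: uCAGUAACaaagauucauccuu
miR-192-5p: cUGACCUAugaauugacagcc
miR-194-5p: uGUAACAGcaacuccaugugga
miR-203-3p: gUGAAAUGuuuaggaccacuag
miR-137-3p: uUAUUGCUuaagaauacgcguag
miR-138-5p: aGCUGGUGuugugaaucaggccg
The second set holds microRNAs that were lower at 8 weeks.
miR-223-3p: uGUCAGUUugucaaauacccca
miR-142a-3p: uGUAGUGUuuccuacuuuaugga
miR-132-3p: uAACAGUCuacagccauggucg
The third set holds families that share a seed and whose members had differences of either sign, some of them with overlapping cards.
miR-29a-3p: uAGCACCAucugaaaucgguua
miR-29b-3p: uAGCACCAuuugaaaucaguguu
miR-29c-3p: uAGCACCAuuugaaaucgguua
miR-322-5p: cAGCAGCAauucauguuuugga
miR-15b-5p: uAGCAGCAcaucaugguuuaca
miR-16-5p: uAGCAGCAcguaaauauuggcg
miR-193a-3p: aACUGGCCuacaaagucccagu
miR-193b-3p: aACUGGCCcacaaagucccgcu
miR-148a-3p: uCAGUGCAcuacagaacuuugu
miR-148b-3p: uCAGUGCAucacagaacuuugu
In GRCm38.p6, miR-192-5p lies at chr19:6264857-6264877 and a copy of miR-194-5p at chr19:6264658-6264679, both on the plus strand. Neither lies in another annotated gene, but genes named Mir and a number, host genes so named included, were left out of this search. The other copy of miR-194-5p lies at chr1:185313325-185313346 inside the protein-coding gene Iars2, with the same mature sequence, so the assay reads both. miR-223-3p lies at chrX:96242884-96242905 inside the long non-coding RNA gene F630028O10Rik. miR-802-5p at chr16:93369737-93369758, miR-203-3p at chr12:112130927-112130948 and miR-137-3p at chr3:118433901-118433923 lie in no other annotated gene, with the same names left out.

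No assay passed an adjusted p of 0.05 between 8 and 4 weeks (0% of 178, limma with Benjamini-Hochberg adjustment). At an unadjusted p of 0.05 there were 27 (15.2%), of which 18 were higher (10.1%) and 9 lower (5.06%) at 8 weeks. This balance depended on the scaling, with 10 higher and 17 lower when scaled to the control RNAs and 17 higher and 1 lower without normalization. The median difference over all 178 assays was -0.04 on the log2 scale, and its quartiles were -0.45 and 0.51. Differences larger than 1 in either direction were measured for 33 assays. Both 8-week cards lay above both 4-week cards for 42 assays (23.6%) and below them for 43 (24.2%). The smallest adjusted p was 0.0529, for miR-685 and miR-137, and 4 assays lay under 0.10 (2.25%), these and miR-223 and miR-203. Whether miR-685 passed depended on the setting. It did with 5 of the 6 other scalings, with a trend in eBayes (0.0138) and with a mean Ct below 32 (0.0161). It also did when only assays determined on all 8 cards with a mean Ct below 35 were tested, which gave 0.0381 for miR-685 and 0.0389 for miR-137. It did not with only the 4 cards fitted (0.323), with the replicate block (0.11) or without normalization (0.174). Nor did it with the replicate block on only the 4 cards, or with undetermined values set to Ct 40. With 1 card left out its difference ran from -4.93 to -2.94. Up to 7 assays passed with quantile normalization. In the same fit, 51 assays differed between 4 weeks and untreated (28.7%), 23 higher (12.9%) and 28 lower (15.7%). Between 8 weeks and untreated 5 differed (2.81%), 4 higher (2.25%) and 1 lower (0.562%). These counts share the untreated cards, and their difference was not itself tested; the direct comparison is the one above.

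All 8 assays of the hepatocyte list had a positive difference between 8 and 4 weeks (47.8% of all 178 did). The median was 1.04 on the log2 scale, against -0.04 over all assays. None passed the adjusted p, 5 of 8 lay under an unadjusted 0.05 (10.1% of all assays in this direction), and in 6 of 8 the cards did not overlap (23.6%). The mean value over the list was 1.13 and 0.79 on the 4-week cards, 2.09 and 1.83 on the 8-week cards, and 3.13 and 3.16 on the untreated cards. The 8-week cards thus lay above the 4-week cards and below the untreated cards. Without normalization the median difference was 1.885, against 0.81 over all assays, and the other scalings gave 0.87 to 1.26. With quantile normalization 2 of the 8 passed, against 7 of all 178 assays. These 2 were miR-192 and miR-148a (each with an adjusted p of 0.0442), while miR-122 was lower. When 1 of the 4 cards was left out, 7 or 8 of the 8 were higher.

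miR-802, a liver and kidney microRNA that acts on hepatocyte metabolism, had values of -3.11 and -3.47 at 4 weeks, against -2.00 and -2.11 at 8 weeks. Both 8-week cards were higher, by 1.23 on the log2 scale, or 2.35-fold (standard error 0.29, adjusted p = 0.108, limma). Untreated liver was at -0.06 and 0.14, far above either time. miR-192, which is abundant in liver, gut and kidney, had values of 5.34 and 4.41 at 4 weeks, against 6.75 and 6.14 at 8 weeks. The difference of 1.57 (95% interval 0.64 to 2.49, adjusted p = 0.126) again left it below the untreated values of 7.59 and 7.77. Its neighbour miR-194 was at 2.88 and 2.42, then at 4.16 and 3.58, a difference of 1.22 (adjusted p = 0.164). In both the 4-week cards were the lowest of the 8.

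miR-193, a microRNA of liver and brown fat that restrains growth, was at -3.35 and -4.52 at 4 weeks, against -1.95 and -2.76 at 8 weeks, a difference of 1.58 (adjusted p = 0.254). Without 4-week replicate 2 the difference was 0.99. miR-148a, which promotes the hepatocyte fate, was at 1.22 and 1.41 and then at 2.26 and 2.09, a difference of 0.86 (adjusted p = 0.237). For both, the 2 times did not overlap. miR-122 did not share the pattern clearly. It was at 6.03 and 6.68 at 4 weeks, 6.06 and 7.26 at 8 weeks and 7.05 and 6.21 in untreated liver, and its difference of 0.30 had a 95% interval of -0.88 to 1.49.

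**Figure D1:**
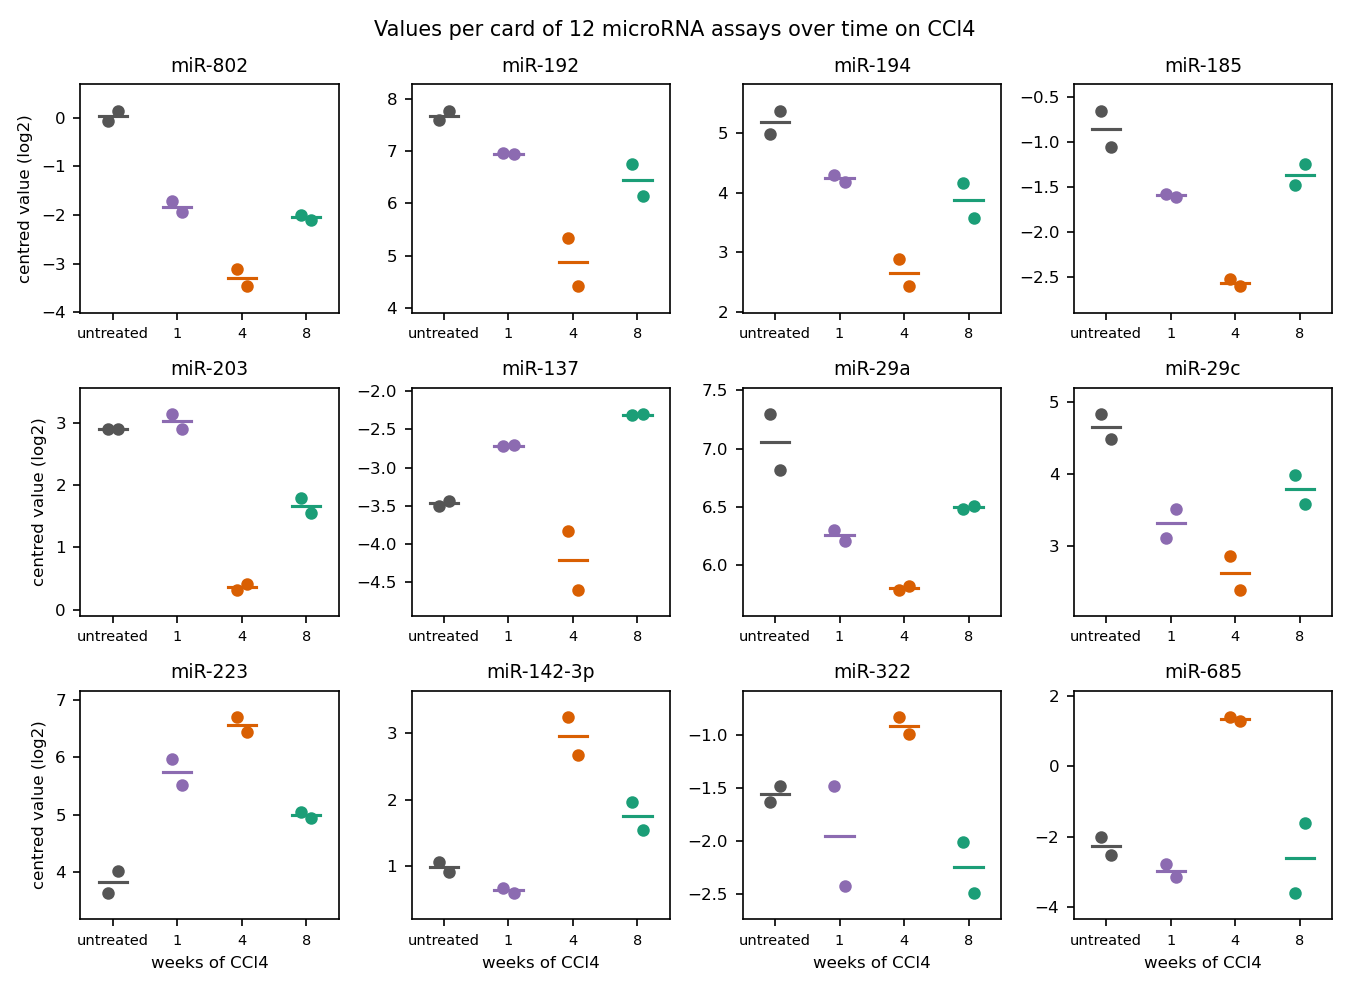
Centred value (log2 scale) on each of the 8 cards for 12 assays, by group (untreated liver and 1, 4 and 8 weeks of CCl4); points are cards and bars the mean of 2 cards. For miR-802, miR-192, miR-194, miR-185, miR-203, miR-29a and miR-29c both 8-week cards sit between the 4-week cards and the untreated cards, and for miR-137 they sit above both.

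The leukocyte list lay on the other side. All 8 assays of the list had a negative difference (52.2% of all assays did), with a median of -0.62, and in 5 of 8 the 8-week cards lay wholly below the 4-week cards (24.2% of all assays). None passed the adjusted p and 2 of 8, miR-223 and miR-142-3p, lay under an unadjusted 0.05 (5.06%). The list's mean value was 2.73 and 2.34 at 4 weeks, 2.00 and 1.64 at 8 weeks, and 0.97 and 1.33 in untreated liver. Without normalization, which leaves the brighter 8-week cards uncorrected, 6 of the 8 were higher at 8 weeks (median 0.225 against 0.81 over all assays), and with a centring on whatever assays each card determined 7 of the 8 were lower. When 1 of the 4 cards was left out, 7 or 8 of the 8 were lower.

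miR-223, an abundant microRNA of neutrophils, was at 6.69 and 6.43 at 4 weeks, against 5.05 and 4.95 at 8 weeks. It was lower by 2.95-fold at 8 weeks (log2 difference -1.56, standard error 0.31, adjusted p = 0.0796), and the untreated cards were lower still, at 3.65 and 4.02. It passed with quantile normalization (-2.12, adjusted p = 0.00943) and with a trend in eBayes (0.0138), while the adjusted p was 0.323 with only the 4 cards fitted and 0.793 without normalization, where the difference was -0.715. miR-142-3p, found in all blood lineages, was at 3.23 and 2.66, then at 1.96 and 1.54, a difference of -1.20 (adjusted p = 0.156). Untreated liver was at 1.07 and 0.91, below all 4 of these cards. miR-150 of mature lymphocytes differed by -0.12, with a 95% interval of -0.86 to 0.63, which leaves out a difference of 1 in either direction. miR-155, which activated macrophages and lymphocytes induce, had a difference of -0.56, and miR-146a, induced by NF-kB, one of -0.39 (adjusted p = 0.359 and 0.666). That of miR-146a rested on single cards, and ran from -0.77 to -0.0065 with 1 card left out. miR-132, which rises in activated macrophages and stellate cells, was at 1.85 and 1.72, then at 0.61 and 1.13, a difference of -0.92 (adjusted p = 0.237).

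The hepatocyte and the leukocyte values come from the same 4 cards, and the part that a changed mixture of cells has in either was not tested. The labels give no run of the cards, so that time and card run cannot be told apart. Of the endothelial pair, miR-126-3p, which sustains vessel integrity, was at 7.20 and 6.40 at 4 weeks, against 8.06 and 7.33 at 8 weeks, a difference of 0.89 (adjusted p = 0.282). miR-126-5p differed by 0.83, and its cards overlapped. The size rested on single cards, since the median of the pair was 0.36 without 8-week replicate 1, 1.37 without 8-week replicate 2 and 0.52 without 4-week replicate 2, against 0.86. Both erythroid assays, miR-486 and miR-451, had small differences (0.20 and 0.18).

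**Figure D2:**
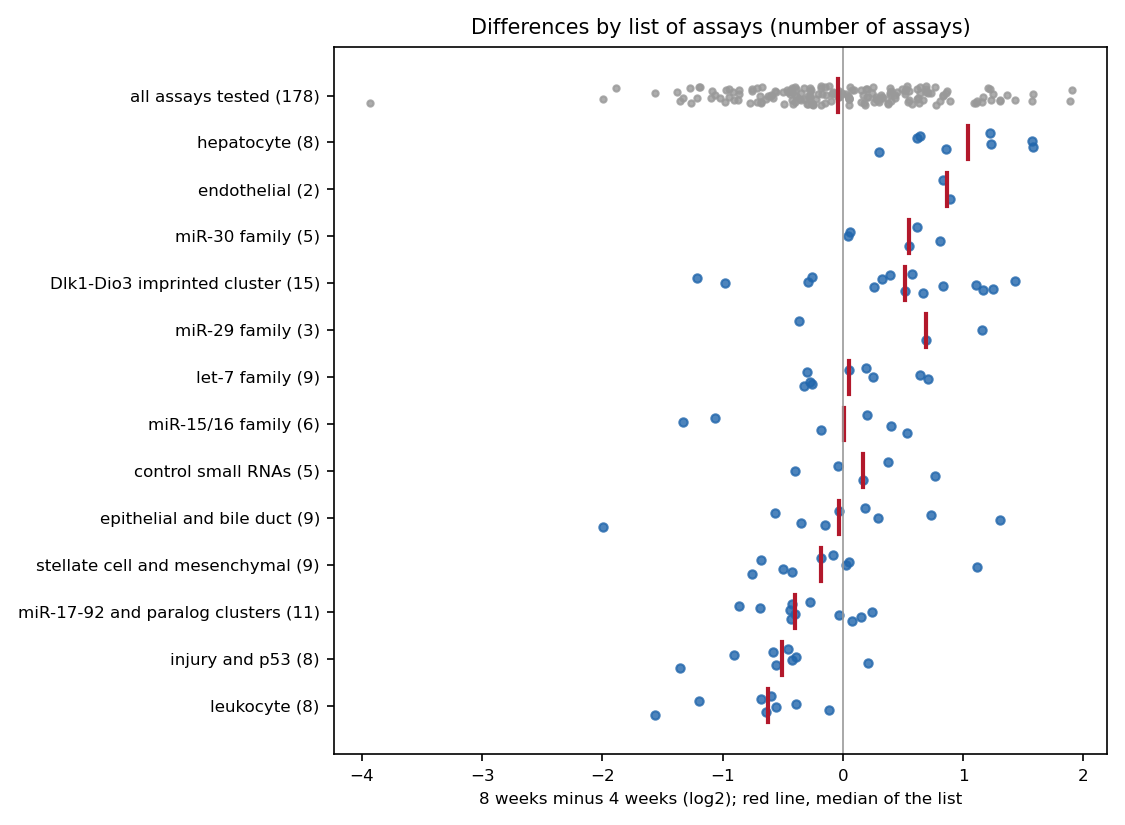
Difference between 8 and 4 weeks (log2 scale) of each assay, by list, with the number of assays in parentheses; each point is 1 assay and the red line the median. The 8 hepatocyte assays all lie above 0 and the 8 leukocyte assays all below 0, while the median over all 178 assays is -0.04.

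The stellate cell and mesenchymal list, the cells that make the scar, was divided. Of 9 assays 3 were higher and 6 lower at 8 weeks, with a median of -0.18, and 1 lay under an unadjusted 0.05, a higher one (10.1% of all assays in this direction). That was miR-10b, at 2.16 and 1.21 at 4 weeks, against 2.86 and 2.75 at 8 weeks (difference 1.12, adjusted p = 0.282). Its difference was 0.64 without 4-week replicate 2. miR-214, made with miR-199a in activated stellate cells, was at 1.89 and 2.37, then at 1.16 and 1.59, a difference of -0.76 (adjusted p = 0.282). miR-199a-3p differed by -0.43 and miR-145, a smooth muscle microRNA, by -0.50, each with overlapping cards. With 1 card left out miR-145 ran from -0.93 to -0.066. miR-143, miR-99a, miR-100 and miR-10a differed by between -0.18 and 0.05, and the 95% interval of each lay within 1 of 0. The counts of the list depended on the setting. Scaled to the control RNAs 1 of the 9 was higher and 8 were lower, without normalization all 9 were higher, and without 8-week replicate 2 there were 2 higher and 7 lower, with a median of -0.53. Without 4-week replicate 2 or 8-week replicate 1 there were 4 higher and 5 lower, with medians of -0.0658 and -0.0774.

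The epithelial and bile duct list was also divided, with 4 of 9 higher and 5 lower. It was 6 and 3 with quantile normalization and with a centring on whatever assays each card determined, and 8 and 1 without normalization. miR-203, a microRNA of keratinising and glandular epithelium that restrains proliferation, stood out within it. It was at 0.32 and 0.41 at 4 weeks, against 1.79 and 1.55 at 8 weeks, a difference of 1.30 (95% interval 0.66 to 1.94, adjusted p = 0.0822), against 2.91 and 2.90 in untreated liver. The 2 cards of each time lay close together. miR-203 passed with quantile normalization (adjusted p = 0.0333) and with a trend in eBayes (0.0188), while the adjusted p was 0.323 with only the 4 cards fitted and 0.379 without normalization. miR-31 was higher by 0.73 without overlap (adjusted p = 0.282). miR-200a, miR-200b and miR-200c, which hold epithelial cells in their state, differed by -0.04, -0.35 and -0.57. miR-375 was at -5.20 and -3.38, then at -7.25 and -5.31, a difference of -1.99 (adjusted p = 0.282). This was -1.02 without 8-week replicate 1 and -2.96 without 8-week replicate 2. miR-375 was undetermined on both 1-week cards, which the fit left out, and its mean Ct of 34.5 is near the limit of the assay.

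The miR-29 family, which represses collagens and other matrix genes, was divided between its members although the seed is the same. miR-29c was at 2.86 and 2.39 at 4 weeks, against 3.99 and 3.58 at 8 weeks, a difference of 1.16 (standard error 0.33, adjusted p = 0.164). miR-29a was at 5.79 and 5.82, then at 6.48 and 6.51, a difference of 0.69 (standard error 0.29, adjusted p = 0.282). For both, the 8-week cards lay above the 4-week cards and below the untreated cards, which were at 4.84 and 4.49 for miR-29c and 7.30 and 6.82 for miR-29a. miR-29b was at -2.36 and -2.44, then at -2.29 and -3.23, a difference of -0.36 with a 95% interval of -1.48 to 0.75. Its direction turned without 8-week replicate 2 (0.11) and without normalization (0.485). The difference between the members was not tested.

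Other seed families also held members on both sides. In the miR-15/16 family, which restrains the cell cycle, 3 of 6 assays were higher and 3 lower. miR-322, from an X-linked cluster, was at -0.84 and -0.996 at 4 weeks, against -2.01 and -2.49 at 8 weeks, a difference of -1.33 (adjusted p = 0.164), and its untreated values of -1.63 and -1.48 lay between the 2 times. miR-15b differed by -1.07, and miR-16 and miR-195 by 0.53 and 0.40 with overlapping cards. miR-193 and miR-193b share a seed, and their differences were 1.58 and -0.68. miR-148a, miR-148b and miR-152 share another, with 0.86, -0.42 and 0.45, and the miR-148b cards overlapped. Differences between members of these families were not tested. miR-107, which lies inside the pantothenate kinase gene Pank1, was at -3.89 and -3.63, then at -2.57 and -2.22, a difference of 1.36 (adjusted p = 0.237), and miR-103, which differs from it near the 3′ end, had 0.38. All 5 miR-30 assays were higher at 8 weeks (47.8% of all assays were), from 0.04 for miR-30d to 0.81 for miR-30c, with a median of 0.55. Scaled to the control RNAs, or without replicate 1 of either time, 3 of the 5 were higher, and with quantile normalization 4. The median was 0.25 without 8-week replicate 1. miR-30c was at 4.88 and 4.71, then at 5.70 and 5.51 (adjusted p = 0.237). The let-7 family was split, 5 higher and 4 lower, with a median of 0.05. This split rested on single cards. Without 8-week replicate 1 it was 7 higher and 2 lower (median 0.70), without 8-week replicate 2 it was 2 higher and 7 lower (median -0.34), without 4-week replicate 1 it was 4 and 5 (median -0.14), and without 4-week replicate 2 it was 7 and 2 (median 0.29). Without normalization all 9 were higher.

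**Figure D3:**
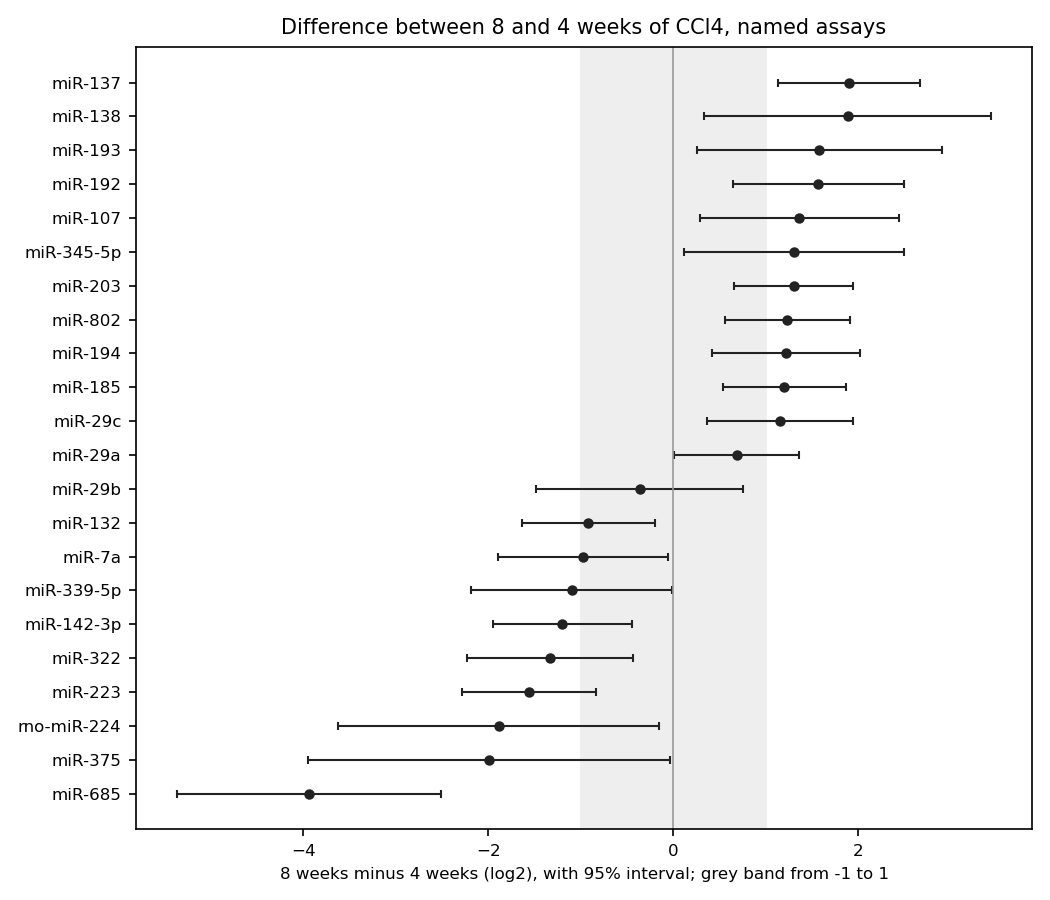
Difference between 8 and 4 weeks (log2 scale) with its 95% interval from limma for the 10 highest and 9 lowest assays at an unadjusted p of 0.05 whose cards did not overlap, and for the miR-29 family; the grey band marks differences within 1. miR-685 lies farthest from 0 at -3.94 and miR-137 farthest on the other side at 1.90, and the interval of miR-29b spans 0.

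The largest difference of all was that of miR-685. It was at 1.39 and 1.29 at 4 weeks, against -3.59 and -1.60 at 8 weeks, and the untreated and 1-week cards were all between -3.15 and -2.00. The 4-week cards thus stood alone, 15.3-fold above the 8-week cards (log2 difference -3.94, standard error 0.61, adjusted p = 0.0529). The difference was -2.94 without 8-week replicate 1 and -4.93 without 8-week replicate 2, and these cards differed from each other by more than any other pair of this assay. miR-137, a microRNA best known from neurons, was at -3.83 and -4.60 at 4 weeks, against -2.32 and -2.30 at 8 weeks, a difference of 1.90, or 3.74-fold (standard error 0.33, adjusted p = 0.0529). Its untreated values, -3.50 and -3.43, lay between the 2 times. Its mean Ct was 32.4, and miR-124, a defining neuronal microRNA, was undetermined on all 4 cards. The other neuronal assay tested, miR-128a, differed by 0.62, and the 1 muscle assay tested, miR-133a, by -0.39, each with overlapping cards.

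Among the remaining assays of large difference, miR-185 was at -2.53 and -2.61 at 4 weeks, against -1.48 and -1.25 at 8 weeks, a difference of 1.20 (adjusted p = 0.108). miR-185 passed with quantile normalization (1.34, adjusted p = 0.0333, limma) and under no other alternative. The 4-week cards were its lowest of the 8, and the untreated cards were at -0.65 and -1.05. miR-138 was at -3.83 and -5.61, then at -2.94 and -2.72, a difference of 1.89 whose 95% interval ran from 0.34 to 3.44 (adjusted p = 0.246). The difference was 0.999 without 4-week replicate 2 and 2.78 without 4-week replicate 1. miR-345-5p differed by 1.31, miR-7a by -0.97 and miR-339-5p by -1.10, each with an adjusted p of 0.282. These sizes depended on the setting. Over all alternatives miR-345-5p ran from 0.55 (without 4-week replicate 1) to 2.155, miR-7a from -1.18 to -0.125 and miR-339-5p from -1.60 to -0.25. The assay of the other arm, miR-339-3p, did not share the difference of miR-339-5p. Its Ct before centring was 28.31 and 29.95 at 4 weeks, against 27.05 and 29.58 at 8 weeks, and the 2 times overlapped. The rno-miR-224 assay was at -2.98 and -3.72, then at -4.69 and -5.78, a difference of -1.89 (adjusted p = 0.282), with 1 undetermined 1-week card left out of the fit. The mouse miR-224 assay went the other way. Before centring its Ct was 32.18 and 34.95 at 4 weeks, against 31.56 and 32.33 at 8 weeks. That of rno-miR-224 was 31.81 and 34.09, then 32.72 and 35.26, so the lower value holds for the rat assay only. None of these 5 assays (miR-138, miR-345-5p, miR-7a, miR-339-5p and rno-miR-224) passed an adjusted p of 0.05 under any alternative that was run.

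The imprinted Dlk1-Dio3 cluster, which is active in fetal liver and quiet in adult hepatocytes, has 51 assays on the cards, of which 15 were tested and 22 were undetermined on all 4 cards. Of the 15, 11 were higher (47.8% of all assays were) and 4 lower at 8 weeks, with a median of 0.52. Of these, 8 lay wholly above the 4-week cards (23.6% of all assays) and 2, miR-134 and miR-337-5p, wholly below (24.2%), and none was under an unadjusted 0.05. The counts depended on the Ct filter. With a mean Ct below 32 only 8 of the list remained, 5 higher and 3 lower, with a median of 0.39. Among assays determined on all 8 cards with a mean Ct below 35, 12 remained, 11 higher and 1 lower (median 0.62). miR-379 was at -0.04 and -1.63 at 4 weeks, against 0.25 and 0.29 at 8 weeks, and untreated liver was at -1.70 and -1.64, so here both 8-week cards lay above the untreated and the 4-week cards. The difference was 1.10 (adjusted p = 0.282), and 0.31 without 4-week replicate 2 and 1.90 without 4-week replicate 1. Without the latter card the median of the list was 0.20. miR-494 differed by 0.26, with a 95% interval of -0.37 to 0.88. The 2 assays of the arms of miR-337 had opposite signs, with 1.25 for the 3p and -1.21 for the 5p arm, both at a mean Ct above 35.

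The miR-17-92 and paralog clusters, which drive proliferation, had 8 of 11 assays lower and 3 higher, with a median of -0.40, and 5 lay wholly below the 4-week cards (24.2% of all assays). The median was -0.25 without 4-week replicate 1 (4 higher and 7 lower) and -0.26 without 8-week replicate 2, and all 11 were lower without 4-week replicate 2. miR-17 was at 4.75 and 4.44, then at 4.27 and 4.12, and miR-19b differed by -0.04 with a 95% interval of -0.77 to 0.70. Of the injury and p53 list, 7 of 8 were lower (52.2% of all assays were), with a median of -0.51, and 6 were lower without overlap (24.2%). No assay of either list passed the adjusted p or lay under an unadjusted 0.05 in limma. It shares miR-146a and miR-155 with the leukocyte list. miR-21, induced by injury in hepatocytes and myofibroblasts, was at 4.90 and 4.69, then at 4.68 and 4.00, a difference of -0.46 (adjusted p = 0.515). With 1 card left out it ran from -0.797 to -0.115, the latter without 8-week replicate 2. Without normalization most members of both lists turned, 10 of 11 and 6 of 8 being higher.

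How closely a plateau was measured is given by the interval of the difference. The 95% interval had a median half-width of 0.94 on the log2 scale, and it lay within 1 of 0 for 22 assays (12.4%). miR-34a, a target of p53, was 1 of these. It was at 0.31 and 0.41 at 4 weeks, against 0.40 and 0.74 at 8 weeks, a difference of 0.21 (95% interval -0.52 to 0.94), while it was above the untreated values of -0.97 and -1.10 at both times (log2 1.40 and 1.61, adjusted p = 0.0139 and 0.0411, limma). Other assays in this set were miR-24, miR-30a, miR-30d, miR-125a-5p and miR-200a. The control small RNAs snoRNA135 and snoRNA202 were also in it, with differences of -0.04 and 0.17. U6, another control RNA, was at 9.36 and 9.48, then at 10.29 and 9.31, and its interval of -0.67 to 1.43 was wider. U87 was at 1.57 and 1.45, then at 2.52 and 2.03 (difference 0.76, adjusted p = 0.282), and Y1 differed by -0.40 with overlapping cards. The count of 22 rests on the scaling, and was 0 with a centring on whatever assays each card determined and 6 with the card median.

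Whether the later difference went with the early response was also described. Untreated and 1-week cards picked 29 assays higher (16.3%) and 32 lower (18%) at 1 week at an adjusted p of 0.05 (limma), and the 4-week and 8-week cards gave the difference. The means of the 2 comparisons share no card, but the spread behind the 1-week calls was estimated on all 8 cards. Of the 32 that were lower at 1 week, 26 were higher at 8 than at 4 weeks and 6 lower, with a median of 0.36, against 84 of 176 and -0.04 over all assays with a 1-week value. In 16 of the 32, the 8-week cards lay wholly above the 4-week cards, against 42 of the 176. Of the 29 that were higher at 1 week, 12 were higher and 17 lower at 8 than at 4 weeks, with a median of -0.12. This value turned with single cards, and was -0.55 without 8-week replicate 1 and 0.21 without 1-week replicate 2. In 11 of the 29 the 8-week cards lay wholly below the 4-week cards and in 6 wholly above, against 42 of the 176 in either direction. The median of the assays lower at 1 week was above that of all assays under every alternative that gave a 1-week value, by 0.025 with no normalization, where it rests on 2 assays, by 0.80 without untreated replicate 1, where it rests on 3, and by 0.22 to 0.53 under the others, where it rests on 8 or more. All cards share 1 centring, and no test was made of this difference in counts.

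**Figure D4:**
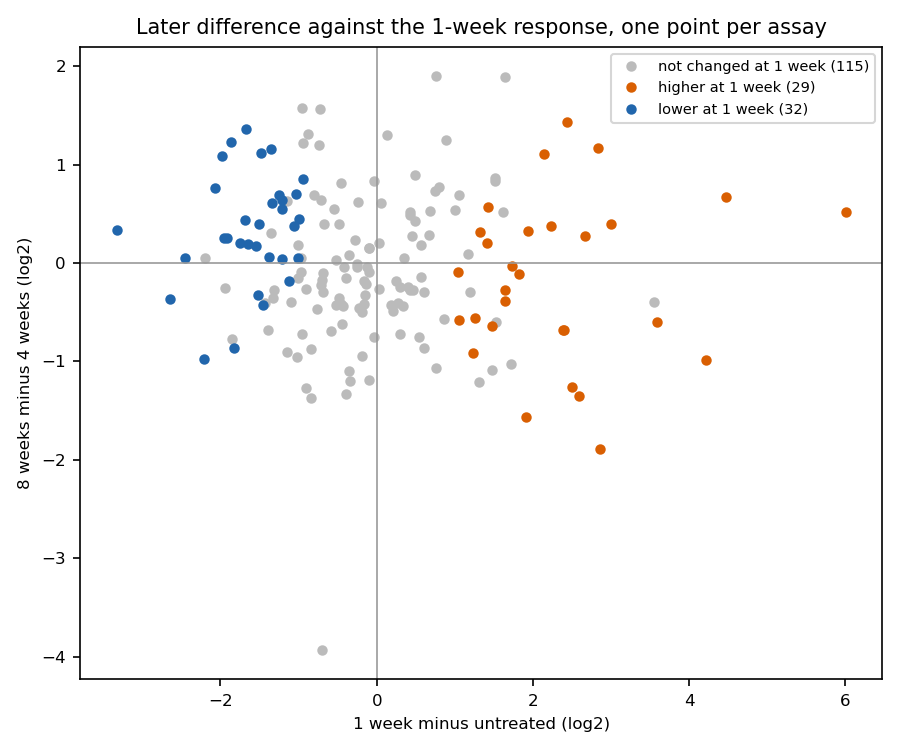
Difference between 8 and 4 weeks against the difference between 1 week and untreated liver (both log2 scale), 1 point for each of 176 assays, coloured by the call at 1 week. Of the 32 assays lower at 1 week, 26 lie above the horizontal line at 0, and of the 29 higher at 1 week, 12 do.

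Of the 381 assays, 124 were undetermined on all 4 cards and 79 gave a Ct on 1 to 3 of them, so that they could not be tested. Of these 79, 16 lacked only 4-week replicate 2, the faintest card. Assays determined on both 8-week cards and neither 4-week card were rno-miR-1 (Ct 32.98 and 35.16), miR-467c (33.02 and 32.81) and miR-669a (31.99 and 33.93). miR-546 was the 1 assay with the opposite pattern, with Ct 34.01 and 31.63 at 4 weeks. All of these Ct values are above 31, and no test was made of them.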

How the data were processed

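Total liver RNA was reverse transcribed by the authors without pre-amplification and run on rodent TaqMan microRNA cards (set A). The authors deposited the Ct of every assay on every card, a PCR cycle number, as raw values with replicates kept apart, and undetermined cells are empty. How the Ct threshold was set is not given in the sources used here. A second deposited table holds the authors' own fold changes against untreated liver and was not used.

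Here each card was centred on the mean Ct of the 168 assays determined on all 8 cards. All 8 cards were fitted in 1 model with limma 3.58.1 in R 4.3.3 (lmFit on group means, eBayes, prior degrees of freedom 3.18), and p-values, two-sided, were adjusted by Benjamini-Hochberg over the 178 assays determined on the 4-week and 8-week cards. Undetermined values on other cards (10 assays) were left out. The median replicate SD at 4 and 8 weeks was 0.41, and the 2 cards per group limit the precision. An exact test of 2 cards against 2 cannot go below 0.333. On 20 simulated sets of the 178 assays, the fit recovered 74% of changes of 2 and 31.5% of changes of 1 on the log2 scale, and called 0.761% of unchanged assays. These sets held 400 changes of each size beside 2760 unchanged values, with noise drawn independently for each card. The shares recovered depend on these settings and need not hold for the real cards.

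Named assays were those with the 10 largest differences each way at an unadjusted p of 0.05 with cards that did not overlap (9 were lower), the 5 lowest mean Ct, 7 microRNAs of liver injury, the control RNAs and the members of the lists with the lowest Ct; further list members, assays that share a seed with a named one, examples from the set with narrow intervals and the partly determined assays were named after their values were seen. The mouse miR-224 and the miR-339-3p assays were also named after their values were seen. The members and lists were chosen with earlier results of these data known. The deposited Ct values name no build, and RefSeq coordinates are those of GRCm38.p6. Plots were drawn with matplotlib 3.10.9.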

Additional observations from a re-analysis of the deposited data

Results flagged for a closer look

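2 assays had every 4-week card on 1 side of both untreated cards and every 8-week card on the other side. For miR-137 the difference between 8 and 4 weeks was 1.90, with the 4-week cards below and the 8-week cards above untreated liver. For miR-322 it was -1.33, the other way round. The difference itself was tested by limma and passed for neither (adjusted p = 0.0529 and 0.164).

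A few assays outside the test gave a Ct on both cards of 1 time and on neither untreated card. At 8 weeks these were miR-382, with a mean Ct of 32.2, miR-467c, with 32.9 (32.915 before rounding), and miR-669a, with 32.96. At 4 weeks it was miR-543, with 34.25. No group has enough cards for a test of single outlying cards.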

How the results depend on the processing

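The alternatives gave 1110 values for the 51 named assays, of which 1056 kept their direction and their side of the threshold. The filters on Ct left out some named assays, and fits to only the 4 cards gave no 1-week result. The count of assays past an adjusted p of 0.05, 0 as reported, was 1 with 4 other centrings (assays below Ct 35, all determined assays of the card, the card median, and U6, snoRNA135 and snoRNA202) and with a mean Ct below 32, 2 with a mean Ct below 35 on all 8 cards, 3 with a trend in eBayes, 7 with quantile normalization, 4 at a threshold of 0.10, and 0 to 1 when 1 card was left out. The 27 assays at an unadjusted 0.05 became 13 to 38 without 1 card, with 16 without 4-week replicate 2 and 13 without 8-week replicate 1. The 22 assays with an interval within 1 became 0 with centring on all determined assays and without normalization, 6 with the card median, 11 with the control RNAs, 6 with only the 4 cards fitted, and 1 to 16 without 1 card (13 without either 1-week card, 7 and 4 without 4-week replicate 1 and 2, 3 and 1 without 8-week replicate 1 and 2). Without normalization the median difference of all assays was 0.81, that of assays higher at 1 week 0.455 and that of assays lower at 1 week 0.83, and leaving out 1 card gave -0.55 to 0.21 for assays higher at 1 week, the lowest without 8-week replicate 1.

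The direction turned without normalization for miR-29b (0.485), miR-21 (0.39), snoRNA135 (0.805), Y1 (0.445), miR-145 (0.35), miR-146a (0.46), miR-200b (0.495), miR-133a (0.455), miR-19b (0.81) and miR-17 (0.445), with centring on all determined assays for snoRNA135 (0.18) and miR-19b (0.18), with the card median for snoRNA135 (0.0275) and miR-19b (0.0325), and with quantile normalization for miR-122 (-0.21). Leaving out 1 card gave differences on both sides of 0 for U6 (-0.11 to 0.87), snoRNA202 (-0.0899 to 0.43), miR-122 (-0.29 to 0.90), miR-29b (-0.83 to 0.11), snoRNA135 (-0.29 to 0.20), Y1 (-1.22 to 0.41), miR-486 (-0.0215 to 0.43), miR-451 (-0.27 to 0.63), miR-133a (-1.66 to 0.88), miR-128a (-0.54 to 1.78), let-7e (-0.36 to 0.74), miR-19b (-0.20 to 0.125) and miR-16 (-0.0224 to 1.08). The cause was not tested.

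The groups share replicate numbers, which the labels do not tie to a shared mouse or day. Across assays, the deviations of same-numbered 4-week and 8-week cards correlated with r = 0.43, over 2 pairs only. With the replicate block the counts were 0 past the adjusted p, 25 at the unadjusted p and 19 with an interval within 1. With the replicate block on only the 4 cards, an alternative chosen after seeing the data, they were 0, 44 (20 higher and 24 lower) and 36. High Ct values and 2 cards per group limit the precision.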
